A study of Mus musculus with 30 samples.

Results

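Germ cells make many mRNAs long before they translate them, and the 10 genes described here encode proteins that store, silence or activate those mRNAs: Pabpc1, Pabpc2, Paip2, Ybx1, Ybx2, Ybx3, Boll, Dazl, Ddx4 and Ddx25. They were chosen by name for this known function. Of the 10 genes, 9 had a row among the 16242 features counted in sperm at 24 h, 4 had a row among the 3082 features counted at 46 days, and Boll had a row in neither. The deposited tables list only part of all genes and their filter is not given in the sources used here, so a gene without a row has no upper limit.

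Male C57Bl/6J mice aged 3 months received tesaglitazar, an agonist of the nuclear receptors PPARα and PPARγ, by intraperitoneal injection (TESA), or the vehicle DMSO in saline (CTRL). The dose was 10 µg per kg, given 2 times a week over 4 weeks. Sperm RNA was sequenced 24 h after the last injection as polyA RNA (4 TESA and 4 CTRL libraries) and after 46 days as total RNA depleted of ribosomal RNA (7 TESA and 7 CTRL libraries). The comparison asks whether the drug had altered sperm RNA soon after treatment and after about a full round of spermatogenesis. The sperm had been released from the cauda epididymis into medium and treated with a lysis buffer for somatic cells. The labels do not say that each library came from a separate animal, so the p-values measure the spread between libraries. The study's methods count animals left after outliers were removed but do not tie them to libraries. For sperm RNA the study counts fewer TESA animals than there are TESA libraries labelled at 46 days. No library is named as left out, and all labelled sperm libraries were used here. The time after injection and the kind of library cannot be told apart.

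Spermatids stop transcribing as their chromatin is compacted, and the mRNAs for late proteins wait in ribonucleoprotein particles until they are needed. Y-box proteins coat and silence these mRNAs, poly(A)-binding proteins and their regulators set how well they are translated, and DAZ-family proteins and DEAD-box helicases act on selected transcripts in germ granules such as the chromatoid body. Mature sperm do not transcribe, so their mRNA is what remained from earlier stages or was taken up later.

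Library totals ran from 15337589 to 27709990 counts at 24 h and from 4538102 to 13513816 at 46 days. At 46 days the ribosomal feature Rn18s-rs5 took 56.9% and Yam1 17.5% of the counts of all libraries together. At 24 h RP23-81C12.3 took 32.1% and Lars2 10.5%. At 46 days, outside the 5 largest features, TESA library 2 kept 158820 of 8758552 counts and CTRL library 14 kept 7119414 of 9617533. Levels are given as CPM (a gene's counts over its library's total, on the customary scale of that unit) after scaling by TMM, edgeR's trimmed mean method, whose factors ran from 0.771 to 1.57 at 24 h and from 0.0981 to 8.15 at 46 days. Transcript lengths were not used here, so levels of different genes were not compared, and the most abundant gene of a list means the one with the highest CPM. For these levels each table was scaled on its own, and levels at 24 h and 46 days are side by side only.

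All 12 markers of late spermatids and sperm were present at both times. Their summed level ran from 3869 (CTRL library 4) to 12503 CPM (CTRL library 8) at 24 h, with Odf1, an outer dense fibre protein of the tail, the most abundant at 2309 CPM. At 46 days it ran from 418 (CTRL library 13) to 989.8 CPM (TESA library 11), with Prm2, a protamine, the most abundant at 160.4 CPM.

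The 24 h libraries also held counts for markers of other cell types. Of 14 markers of the epididymal epithelium 6 had a row, with summed levels of 1156 to 2878 CPM and Spink8 the most abundant at 687 CPM. Of 13 leukocyte markers 12 had a row, with summed levels of 1215 to 2583 CPM, and most of this was Cd52 at 1644 CPM, a gene that the epididymis also expresses. Rows were also present for 4 of 6 blood markers (53.5 to 269.9 CPM, with Hba-a2 the most abundant at 48.9 CPM) and 6 of 6 smooth muscle markers (16.7 to 85.3 CPM, Tagln at 8.37 CPM). For earlier germ cells, 5 of 9 spermatogonial markers (36.6 to 85.6 CPM, Uchl1 at 41.1 CPM) and 3 of 8 spermatocyte markers (5.43 to 8.88 CPM, Piwil1 at 3.14 CPM) had a row. Of 11 Sertoli and Leydig markers 2 had a row (1.82 to 6.11 CPM, Sox9 at 2.87 CPM). At 46 days Uchl1 was the 1 spermatogonial marker with a row (12.3 to 26.5 CPM), and 0 markers of the other 6 lists had one. The part that these cells had in the member levels was not tested.

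At 24 h no member passed a test of TESA against CTRL. edgeR's quasi-likelihood test called 0 of 9 at an adjusted p under 0.05, against 0% of the 13030 mRNAs and lincRNAs tested, and 0 of 9 at an unadjusted p under 0.05, against 2.4% (313 genes). The groups did not overlap for 0 of 9 members, against 3.05% of all genes. At the adjusted threshold the edgeR exact test, DESeq2 and limma also called 0 genes, with 305, 423 and 919 genes at an unadjusted p under 0.05. The log2 fold change was above 0 for 3 of 9 members, with a median of -0.078, while over all genes tested 49.1% were above 0 and the median was -0.0086. On library totals without TMM, Pabpc1, Ybx1 and Ybx2 turned above 0, as did the median of all genes (0.21). In bulk sperm RNA, fewer cells that hold a transcript and less of it in each cell cannot be told apart.

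**Figure D1:**
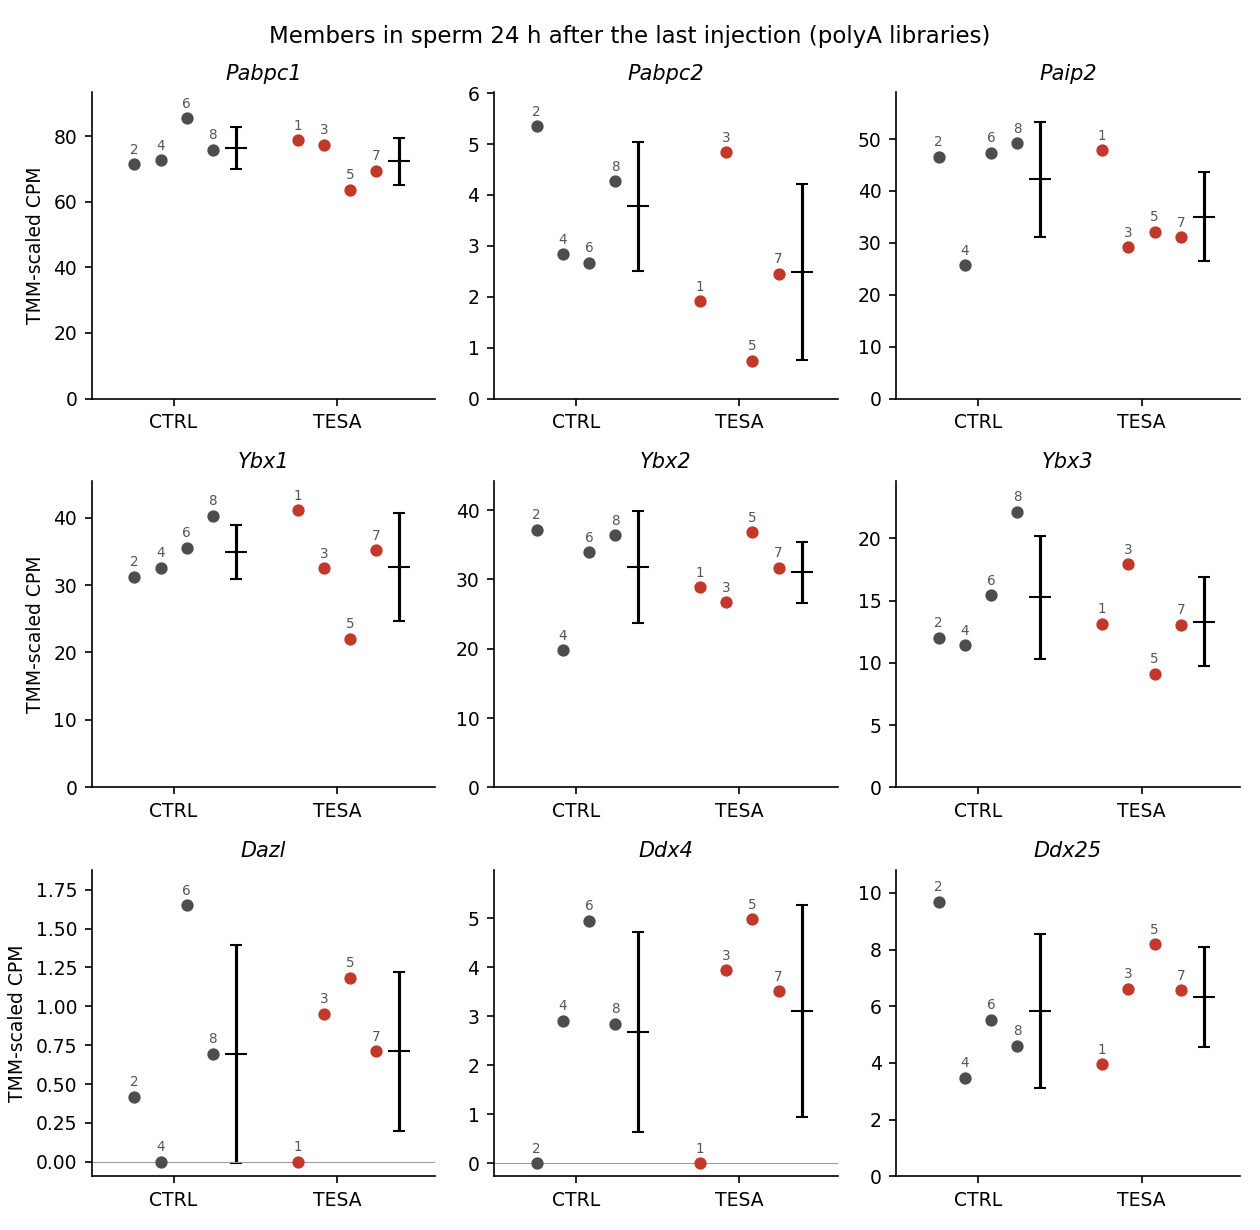
TMM-scaled CPM of the 9 members with a row at 24 h, 1 panel per gene with its own vertical axis, for 4 CTRL (grey) and 4 TESA (red) libraries numbered as in the labels. Horizontal ticks with bars are the mean ± SD, and in every panel the TESA points overlap the CTRL points.

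Pabpc1 encodes the main cytoplasmic poly(A)-binding protein, which coats the mRNA tail and joins it to the initiation complex (chromosome 15, 36595658 to 36609581, in RefSeq on GRCm38.p6, the build of all positions given). Its level was 71.4, 72.6, 85.5 and 75.9 CPM in CTRL libraries 2, 4, 6 and 8, and 78.8, 77.4, 63.7 and 69.5 CPM in TESA libraries 1, 3, 5 and 7. TESA libraries 5 and 7 lay below every CTRL library and the other two lay among them. The means were 76.3 ± 6.37 CPM in CTRL and 72.4 ± 7.10 CPM in TESA (SD, n = 4 each), a log2 fold change of -0.078 (SE 0.18, edgeR adjusted p = 1.00). An interval of 2 SE either side ran from -0.44 to 0.29, and without TESA library 5 the log2 fold change was -0.0051. Over the 8 libraries its coefficient of variation was 8.87%, against 17.6% for Ybx1 and 19.3% for Ybx2.

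Pabpc2 (chromosome 18, 39773497 to 39776082) is an intronless relative of Pabpc1 expressed in testis. CTRL libraries 2, 4, 6 and 8 had 5.35, 2.83, 2.67 and 4.28 CPM, and TESA libraries 1, 3, 5 and 7 had 1.91, 4.84, 0.739 and 2.46 CPM. In 3 of 4 TESA libraries it was below every CTRL library, and TESA library 3 lay within the CTRL range. The log2 fold change was -0.60 (SE 0.60, edgeR adjusted p = 1.00), from 15 to 129 counts per library. It was -1.14 without TESA library 3 and -0.28 without TESA library 5. Counts of Pabpc1 and Pabpc2 were estimated from reads that similar transcripts can share, so the division between them is uncertain.

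Paip2 encodes an inhibitor that pulls poly(A)-binding protein off the tail and lowers translation. Its level was 46.6, 25.6, 47.3 and 49.2 CPM in CTRL libraries 2, 4, 6 and 8, and 47.9, 29.2, 32.1 and 31.1 CPM in TESA libraries 1, 3, 5 and 7. CTRL library 4 and TESA library 1 each stood apart from the rest of their group, so that the low CTRL library lay below all TESA libraries and the high TESA library lay among the other CTRL libraries. The means were 42.2 ± 11.1 and 35.1 ± 8.61 CPM (SD, n = 4 each), a log2 fold change of -0.27 (SE 0.27, edgeR adjusted p = 1.00). Paip2 (chromosome 18, 35598610 to 35617186) overlaps Slc23a1, which also has a row at 24 h.

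The Y-box proteins bind mRNA with little sequence preference. Ybx2 (MSY2, chromosome 11, 69935805 to 69941604) is the germ-cell member that holds stored mRNAs in spermatids, while Ybx1 (chromosome 4, 119277327 to 119296265) and Ybx3 (MSY4, chromosome 6, 131364858 to 131388450) are made in many tissues and in germ cells. Ybx2 had 37.2, 19.8, 33.9 and 36.3 CPM in CTRL libraries 2, 4, 6 and 8, and 28.9, 26.7, 36.8 and 31.7 CPM in TESA libraries 1, 3, 5 and 7. All 4 TESA libraries lay inside the CTRL range, which was set by the low CTRL library 4. The group means were 31.8 ± 8.12 and 31.0 ± 4.38 CPM (SD, n = 4 each), with a log2 fold change of -0.037 (SE 0.24, edgeR adjusted p = 1.00). CTRL library 4 was also the lowest of the 8 for Paip2 and for the summed sperm markers, a relation that was not tested.

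Ybx1 was at 31.3, 32.6, 35.6 and 40.3 CPM in CTRL libraries 2, 4, 6 and 8, and at 41.1, 32.5, 22.03 and 35.2 CPM in TESA libraries 1, 3, 5 and 7. TESA held both the highest and the lowest library, and the log2 fold change was -0.095 (SE 0.23, edgeR adjusted p = 1.00). Ybx3 was at 12.0, 11.4, 15.4 and 22.1 CPM in CTRL and at 13.1, 17.9, 9.12 and 13.1 CPM in TESA, in the same library order. TESA library 5 was the lowest for both genes, the groups overlapped, and the log2 fold change of Ybx3 was -0.20 (SE 0.31, edgeR adjusted p = 1.00). A small nucleolar RNA gene, Gm22362, lies within Ybx3 and had no row of its own.

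Dazl and Ddx4 mark germ cells from early stages on, Dazl (chromosome 17, 50279393 to 50293620) as a translational activator that binds target mRNAs and Ddx4 (the mouse vasa homologue, chromosome 13, 112598333 to 112652633) as a helicase of germ granules. Dazl had 0.418, 0, 1.65 and 0.696 CPM in CTRL libraries 2, 4, 6 and 8, and 0, 0.952, 1.18 and 0.711 CPM in TESA libraries 1, 3, 5 and 7. It was thus listed at 0 in 1 library of each group, where 3 counts would be 0.243 CPM (CTRL library 4) and 0.185 CPM (TESA library 1), and it had 5 to 34 counts elsewhere. At the mean of the other libraries these libraries would have had 11.6 and 15.2 counts. The log2 fold change was 0.029 (SE 1.39, edgeR adjusted p = 1.00).

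Ddx4 had 0, 2.91, 4.95 and 2.85 CPM in CTRL libraries 2, 4, 6 and 8, and 0, 3.94, 4.98 and 3.51 CPM in TESA libraries 1, 3, 5 and 7. The other 6 libraries had 36 to 153 counts, and at their mean level of 3.86 CPM the libraries at 0 would have had 46.1 counts (CTRL library 2) and 62.5 counts (TESA library 1). A count of 0 allows up to 0.251 CPM in CTRL library 2 and 0.185 CPM in TESA library 1, limits that cover counting error only. The empty libraries fell 1 in each group, and the log2 fold change was 0.21 (SE 1.29, edgeR adjusted p = 1.00).

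Ddx25 (GRTH, chromosome 9, 35541848 to 35558470) encodes a helicase of haploid germ cells that exports mRNAs to the chromatoid body and is needed to complete spermatid development. It had 9.69, 3.48, 5.53 and 4.61 CPM in CTRL libraries 2, 4, 6 and 8, and 3.95, 6.62, 8.18 and 6.56 CPM in TESA libraries 1, 3, 5 and 7. CTRL held both the highest and the lowest library, so TESA lay inside its range. The log2 fold change was 0.12 (SE 0.41, edgeR adjusted p = 1.00). Boll, a DAZ-family protein of meiotic and haploid cells (chromosome 1, 55243566 to 55363789), had no row, and a pseudogene within it, Gm8292, had none either.

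At 46 days 4 members had a row, and 3 passed the filter of more than 20 counts in at least 6 libraries: Pabpc1, Paip2 and Ddx4. edgeR's quasi-likelihood test called 0 of 3 at an adjusted p under 0.05, against 0% of 2262 mRNAs and lincRNAs, and 0 of 3 at an unadjusted p under 0.05, against 5.75% (130 genes, 112 of them higher in TESA). The groups did not overlap for 0 of 3 members, against 0.0442% of all genes tested (1 gene). At the adjusted threshold DESeq2 and limma called 0 genes and the edgeR exact test called 12, with 112, 134 and 148 genes at an unadjusted p under 0.05, and in none of these tests was a member called. TESA library 12 stood apart from the others for several of the genes described here. Where the main log2 fold change of a tested gene at 46 days is given, its value without this library is given too.

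**Figure D2:**
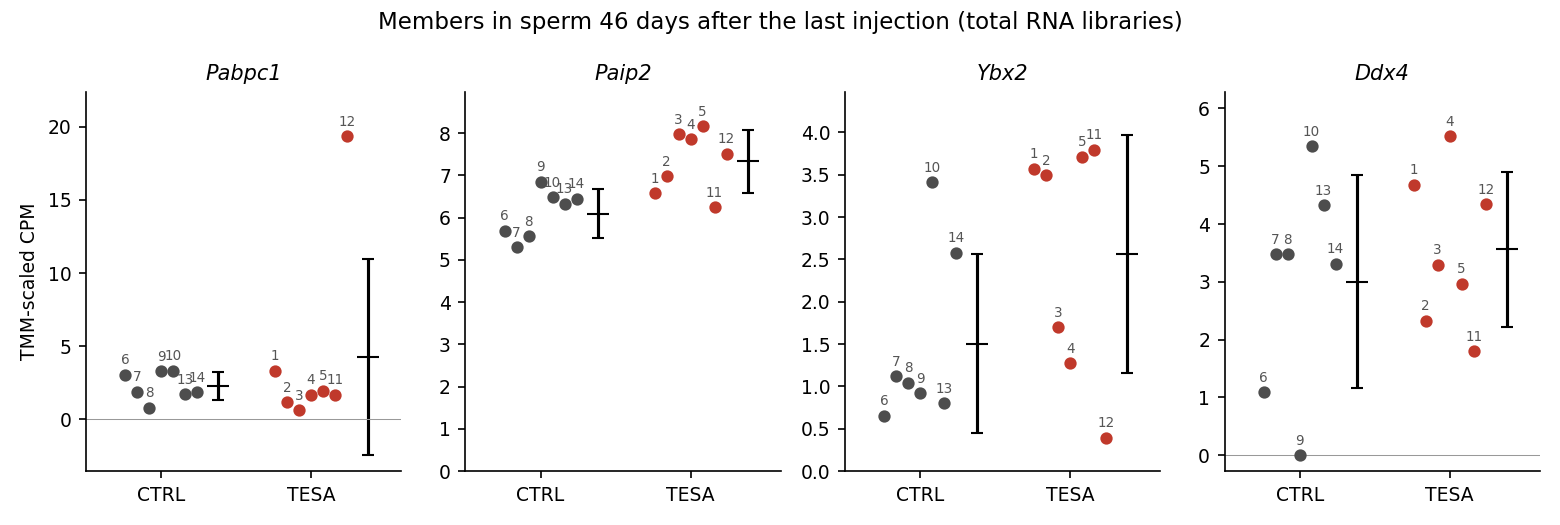
TMM-scaled CPM of the 4 members with a row at 46 days, 1 panel per gene with its own vertical axis, for 7 CTRL (grey) and 7 TESA (red) libraries numbered as in the labels. Horizontal ticks with bars are the mean ± SD, and TESA library 12 stands at 19.4 CPM of Pabpc1 while the other 13 libraries lie between 0.637 and 3.35 CPM.

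Pabpc1 ran from 0.811 CPM through a median of 1.89 to 3.34 CPM in the 7 CTRL libraries, and from 0.637 CPM through a median of 1.70 to 19.4 CPM in the 7 TESA libraries. The highest value was TESA library 12, with 49 counts, and the other 6 TESA libraries reached 3.35 CPM at most. With this library the log2 fold change was 0.81 (SE 0.64, edgeR adjusted p = 0.999), and without it the sign turned to -0.34 (SE 0.37). Among libraries 1 to 10 alone it was -0.39 (SE 0.48), and with a term for libraries 11 to 14 it was 0.50 (SE 0.64).

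On library totals without TMM, Paip2, its inhibitor, ran from 0.685 (TESA library 2) to 52.5 CPM (CTRL library 14). With TMM it varied little between libraries. It ran from 5.31 CPM through 6.33 (median) to 6.85 CPM in CTRL and from 6.24 CPM through 7.51 (median) to 8.16 CPM in TESA. The groups overlapped, though with TMM 5 of 7 TESA libraries lay above every CTRL library. On library totals without TMM no TESA library did, and the means were 7.85 CPM in TESA and 15.6 CPM in CTRL. With TMM the means were 6.10 ± 0.574 CPM in CTRL and 7.33 ± 0.739 CPM in TESA (SD, n = 7 each). The log2 fold change of 0.26 (SE 0.14) did not pass edgeR's test (unadjusted p = 0.129, adjusted p = 0.967), and without TESA library 12 it was 0.21 (SE 0.14). An interval of 2 SE around the value from all libraries ran from -0.022 to 0.55. edgeR's unadjusted p is larger than this SE alone would give, so the interval may be too narrow. These levels rested on 6 (TESA library 2) to 505 (CTRL library 14) counts.

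Ybx2 had more than 20 counts in 4 libraries only and was not tested. It ran from 0.656 CPM through a median of 1.04 to 3.41 CPM in CTRL, and from 0.395 CPM through a median of 3.49 to 3.80 CPM in TESA. In TESA 4 of 7 libraries lay above every CTRL library (libraries 1, 2, 5 and 11), while TESA library 12 lay below all of CTRL with 1 count. These 4 libraries had 32, 3, 15 and 135 counts of Ybx2, so the position of TESA library 2 rests on 3 counts. On library totals without TMM no TESA library lay above every CTRL library, and the means were 3.79 CPM in TESA and 5.47 CPM in CTRL.

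Ddx4 ran from 0 through a median of 3.48 to 5.35 CPM in CTRL and from 1.80 through a median of 3.29 to 5.52 CPM in TESA. CTRL library 9 was listed at 0, where 3 counts would be 0.395 CPM and the mean of the other libraries would give 26.8 counts. The log2 fold change was 0.21 (SE 0.51, edgeR adjusted p = 0.999), and without CTRL library 9 it was -0.020 (SE 0.34). Without TESA library 12 it was 0.10 (SE 0.52). The groups overlapped, with CTRL libraries 6 and 9 below every TESA library and TESA library 4 above every CTRL library.

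Without TMM, on library totals alone, the median log2 fold change of all genes moved from 0.029 to -1.03 at 46 days and from -0.0086 to 0.21 at 24 h, and all 3 members tested at 46 days turned below 0. Relative to that median the 46-day values were 0.099 for Pabpc1, 0.034 for Paip2 and -0.47 for Ddx4, against 0.78, 0.23 and 0.19 with TMM. For the 24 h members the values relative to the median kept their sign under both scalings, except Dazl (0.038 with TMM and -0.022 with library totals).

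**Figure D3:**
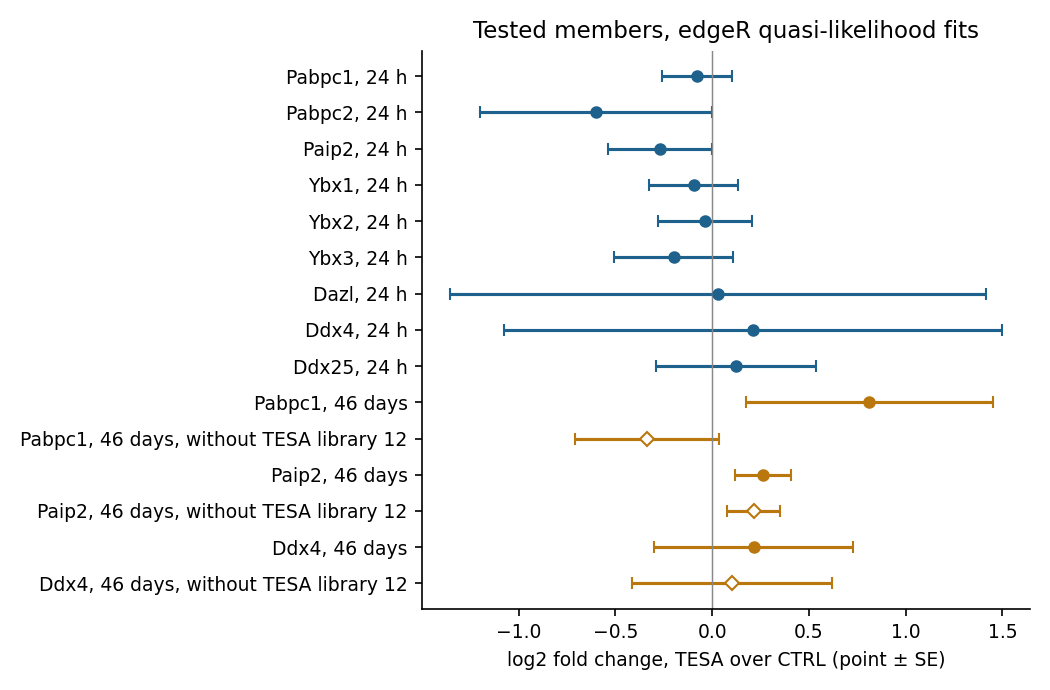
Log2 fold change of TESA over CTRL with its SE for the 9 members tested at 24 h (blue) and the 3 tested at 46 days (orange), with open symbols for the 46-day fits without TESA library 12. Pabpc1 at 46 days moves from 0.81 to -0.34 without that library, and all edgeR adjusted p-values are 0.967 or higher.

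The effect of TESA was not shown to differ between the times for any member tested at both. The interaction of group and time was called for 0 of 3 members at an adjusted p under 0.05, against 0% of 2141 genes, and for 0 of 3 at an unadjusted p under 0.05, against 5.28% (113 genes). DESeq2's interaction term called 6 genes. Without TESA library 1, 3 or 5 of the 24 h set, edgeR called 2, 4 and 2 genes. The difference in log2 fold change, 46 days minus 24 h, was 0.67 for Pabpc1 (SE 0.79), -0.13 for Ddx4 (SE 1.18) and 0.31 for Paip2 (SE 0.25), with edgeR adjusted p = 0.999 for each. Without TESA library 12 at 46 days the value for Pabpc1 was -0.32 (SE 0.48). On library totals without TMM the difference turned below 0 for Pabpc1 and Paip2. For Ddx4 the log2 fold changes were then 0.42 at 24 h and -1.50 at 46 days.

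Ratios of counts within a library need no scaling, and the transcript length of a pair cancels when its ratio is set across libraries. Counts of Pabpc1 per count of Paip2 ran from 1.53 to 2.83 in the 8 libraries at 24 h (median 1.89). At 46 days they ran from 0.080 to 0.538 in the 13 libraries other than TESA library 12, which was at 2.58. That library was therefore inside the 24 h range and outside that of its own set. Ybx2 per count of Paip2 ran from 0.603 to 1.15 at 24 h and from 0.0526 to 0.608 at 46 days, so these ranges met only at their edge. The lowest 46-day value was TESA library 12, and without it that range began at 0.115. Ddx4 per count of Paip2 had the higher median at 46 days, 0.547 against 0.109 at 24 h, but its ranges overlapped (0 to 0.155 at 24 h and 0 to 0.825 at 46 days), with libraries at 0 in both sets. These differences were not tested, since they lie between library kinds as well as times.

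In the TESA and CTRL groups at 24 h the Ybx2 ratios to Paip2 were 0.603 to 1.15 (TESA, median 0.967) and 0.716 to 0.797 (CTRL, median 0.755). TESA libraries 3, 5 and 7 lay above every CTRL library and TESA library 1 lay below all of them. Ddx25 per count of Paip2 had the same libraries above and below CTRL, and shares the Paip2 counts. For Pabpc1, Ybx1, Ybx3 and Ddx4 over Paip2 the groups overlapped without this pattern. The CTRL library with the least Ybx2 and Paip2 thus had an ordinary ratio between them.

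Other genes of mRNA storage and translation were counted in 7 further lists, and at 24 h 0 genes of any list passed the adjusted threshold. Of 12 other poly(A)-binding proteins and partners 9 were tested, with 5 above 0 and a median log2 fold change of 0.045. Pabpn1, the nuclear poly(A)-binding protein, was at 161 ± 26.2 CPM in TESA and 126 ± 19.6 CPM in CTRL, with overlapping groups (log2 fold change 0.36, SE 0.21). Larp1, which binds mRNAs of the translation machinery, was at 50.3 ± 6.40 and 46.1 ± 19.4 CPM (log2 fold change 0.13, SE 0.31).

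Of 30 cap-binding and initiation factors 27 were tested at 24 h, 17 above 0 with a median of 0.10. The scaffold Eif4g1 was at 268 ± 58.9 CPM in TESA and 381 ± 108 CPM in CTRL (log2 fold change -0.51, SE 0.27), and Eif1, a factor of start codon choice, at 193 ± 35.9 and 195 ± 75.3 CPM. Eif5a, a factor of peptide bond formation at the ribosome, was the 1 of 27 with an unadjusted p under 0.05, against 2.4% of all genes. It was at 91.8 ± 25.5 CPM in TESA and 55.0 ± 10.3 CPM in CTRL, a log2 fold change of 0.74 (SE 0.26, unadjusted p = 0.0165, edgeR adjusted p = 1.00). All 4 TESA libraries lay above CTRL, but the lowest TESA and the highest CTRL library were both at 64.9 CPM, and 3.05% of all genes had groups that did not overlap. Without TESA library 7 the unadjusted p was above 0.05 and the log2 fold change 0.61.

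All 15 genes of cytoplasmic polyadenylation tested at 24 h missed the unadjusted threshold, 5 above 0 with a median of -0.13. Fam46c (Tent5c), a poly(A) polymerase, was at 427 ± 195 CPM in TESA and 429 ± 196 CPM in CTRL, and Cpeb3, which binds the cytoplasmic polyadenylation element, at 41.0 ± 14.2 and 37.1 ± 9.08 CPM. The 27 tested genes of deadenylation and decapping had 10 above 0 and a median of -0.058. Cnot1, the scaffold of the CCR4-NOT deadenylase, was at 32.3 ± 1.98 CPM in TESA and 37.4 ± 19.95 CPM in CTRL, and Btg1, which recruits that deadenylase, at 27.4 ± 3.78 and 27.4 ± 8.89 CPM. Neither gene separated the groups.

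Among 25 tested RNA-binding repressors 9 were above 0 at 24 h, with a median of -0.11. Fxr1, a relative of the fragile X protein, was at 52.9 ± 17.4 CPM in TESA and 59.7 ± 23.1 CPM in CTRL. Caprin1, a stress granule protein, was the 1 of 25 with an unadjusted p under 0.05, again against 2.4%. It was at 25.0 ± 4.65 CPM in TESA and 37.3 ± 6.10 CPM in CTRL (log2 fold change -0.58, SE 0.22, unadjusted p = 0.0245, edgeR adjusted p = 1.00). Every TESA library (20.6 to 31.2 CPM) lay below every CTRL library (33.3 to 46.3 CPM), a separation that 3.05% of all genes showed. Its unadjusted p was above 0.05 without TESA library 5 or 7 or CTRL library 8 and on library totals without TMM, where the log2 fold change was -0.41.

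The 16 tested genes of the chromatoid body and RNA helicases had 9 above 0 and a median of 0.052 at 24 h. Ddx5, a DEAD-box helicase of the nucleus, was at 153 ± 52.0 CPM in TESA and 208 ± 45.1 CPM in CTRL, and Nxf1, the main mRNA export receptor, at 79.7 ± 27.8 and 79.3 ± 6.00 CPM. Ddx3x, a helicase that helps initiation on structured mRNAs, was the 1 of 16 with an unadjusted p under 0.05 (2.4% of all genes), at 15.6 ± 3.08 and 24.7 ± 9.00 CPM (log2 fold change -0.66, SE 0.29, unadjusted p = 0.0489, edgeR adjusted p = 1.00). Its groups overlapped, the unadjusted p was above 0.05 with the edgeR exact test, DESeq2 and limma, and without CTRL library 4 the log2 fold change was -0.40 (SE 0.27). On library totals without TMM the log2 fold change was -0.43. The quasi-likelihood test's unadjusted p was above 0.05 there and with DESeq2's scaling. It was also above 0.05 without TESA library 1, 5 or 7 or CTRL library 4 or 8.

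The last list holds the stored mRNAs themselves. All 12 stored target mRNAs were tested at 24 h, 3 above 0 with a median of -0.20 and none with an unadjusted p under 0.05. Odf1 was at 2276 ± 837 CPM in TESA and 2342 ± 1010 CPM in CTRL, and Smcp, a mitochondrial capsule protein whose mRNA is a known Ybx2 target, at 1943 ± 781 and 2354 ± 1360 CPM. For both genes the spread between libraries was larger than the difference of the means. Of these 12 genes 8 are also on the list of sperm markers.

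At 46 days fewer of the same genes had rows, and again 0 passed the adjusted threshold. Of 30 cap-binding and initiation factors 10 were tested, 8 above 0 with a median of 0.41, while the median of all 2262 genes was 0.029. Eif4g1 was at 519 ± 95.2 CPM in TESA and 549 ± 47.8 CPM in CTRL, with TESA library 12 the lowest of all at 327 CPM. Without that library 6 of 10 were above 0 and the median was 0.14. edgeR then called 0 genes of all tested, with 70 at an unadjusted p under 0.05.

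In that list 3 of 10 genes had an unadjusted p under 0.05 at 46 days, against 5.75% of all genes tested, and TESA library 12 was the highest library for each. Without it 1 of 10, Eif4g2, was under 0.05, against 70 of 2262. Eif4g2, a relative of Eif4g1 for initiation without cap binding, was at 55.3 CPM there and at most 5.52 CPM elsewhere. Its log2 fold change was 2.44 (SE 0.76, edgeR adjusted p = 0.689) and 0.86 without that library (SE 0.35). Eif1 was at 46.2 CPM there and at most 5.91 CPM elsewhere, and its log2 fold change was 1.28 (SE 0.54, edgeR adjusted p = 0.749) and 0.16 without it (SE 0.20). Eif4ebp2, which holds the cap-binding protein inactive, was at 234 CPM there and at 142 CPM in TESA library 2, against at most 44.3 CPM in the rest. Its log2 fold change was 2.13 (SE 0.82, edgeR adjusted p = 0.749), 1.26 without library 12 (SE 0.77) and 0.49 without both libraries (SE 0.68). On library totals without TMM the log2 fold changes were 0.31 (Eif4g2), -0.55 (Eif1) and 0.43 (Eif4ebp2), where the median of all genes was -1.03. With limma and all libraries they were 0.82, 0.22 and 1.02.

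The other lists at 46 days were short. Of the poly(A)-binding proteins and partners 3 were tested (median -0.083, and -0.13 without TESA library 12), with Pabpn1 at 13.7 ± 3.23 CPM in TESA and 14.4 ± 1.70 CPM in CTRL and the germ-cell paralogue Pabpc1l at 3.33 ± 2.17 and 3.39 ± 0.846 CPM. In cytoplasmic polyadenylation 4 were tested (median 0.058, and 0.10 without that library), with Fam46c at 49.2 ± 13.5 and 46.8 ± 11.2 CPM and Cpeb3 at 15.5 ± 4.44 and 15.4 ± 2.77 CPM. These 4 genes had overlapping groups and close means.

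Deadenylation and decapping had 3 genes tested, all above 0 with a median of 0.71 (0.34 without TESA library 12). The deadenylase Parn was at 6.90 ± 2.63 CPM in TESA and 5.20 ± 1.04 CPM in CTRL, and the exonuclease Xrn1 at 4.92 ± 3.39 and 3.05 ± 1.52 CPM. TESA library 12 was the highest for both, and without it the log2 fold changes went from 0.42 to 0.23 (Parn) and from 0.71 to 0.34 (Xrn1). Btg1 had an unadjusted p of 0.0348 (log2 fold change 0.86, SE 0.37, edgeR adjusted p = 0.764), with 10.3 CPM in TESA library 12 and at most 3.26 CPM elsewhere, and a log2 fold change of 0.39 without it (SE 0.24). Repressors had 4 genes tested (median 0.30, and 0.094 without library 12), with Caprin1 at 33.9 ± 11.3 and 28.9 ± 3.74 CPM. Its log2 fold change was 0.23 (SE 0.17) with TESA library 12, which was at 58.9 CPM, and -0.0027 (SE 0.10) without it.

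Chromatoid body genes and helicases had 7 tested at 46 days, 6 above 0 with a median of 0.37, and 0.025 without TESA library 12. Ddx5 was at 71.5 CPM in that library and at most 15.9 CPM elsewhere, and its relative Ddx17 at 44.7 CPM against at most 14.9 CPM. Leaving it out moved the log2 fold changes from 0.82 to 0.072 (Ddx5) and from 0.58 to 0.015 (Ddx17). The summed level of this list was 154 CPM in TESA library 12 and 32.4 to 68.8 CPM in the other 13 libraries. The same library had 473 CPM of sperm markers, second lowest after CTRL library 13, and what sets it apart was not tested.

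All 12 stored target mRNAs were tested at 46 days as well, 7 above 0 with a median of 0.056 (9 and 0.057 without TESA library 12). Prm2 was at 158 ± 54.0 CPM in TESA and 163 ± 52.0 CPM in CTRL, and Odf1 at 97.8 ± 28.4 and 101.4 ± 23.9 CPM. Their summed level was 545 ± 125 CPM in TESA and 545 ± 133 CPM in CTRL (SD, n = 7 each), with TESA library 12 (373 CPM) and CTRL library 13 (291 CPM) the lowest of their groups.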

How the data were processed

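The authors deposited estimated counts per gene or repeat family, from reads trimmed with Trim Galore 1.16 and quantified with Salmon 0.11.2 on GENCODE M18 transcripts, piRNA precursors and repeats (GRCm38). The estimated counts were rounded to whole numbers. TMM used all features of a table. Tested were features whose count was above 20 in 4 (24 h) or 6 libraries (46 days) or more, 80% of the smallest group. TESA was set against CTRL by quasi-likelihood F in edgeR 4.0.16 (R 4.3.3), and p-values were adjusted by Benjamini-Hochberg over all mRNAs and lincRNAs tested (threshold 0.05). The SE is the log2 fold change over the square root of F. The interaction used features past both filters, with a TMM of its own over the features present in both tables, for all sperm libraries together. Alternatives were edgeR's exact test, DESeq2 1.42.0, limma 3.58.1 (voom with quality weights), other scalings and filters, and left-out libraries. The fits were tested on simulated data with large changes only, which does not test changes as small as those of the members. No 2 libraries had identical counts. Named genes were all members, the 2 most abundant of each other pathway list, those with an unadjusted p under 0.05 (at most 5 a list), and the most abundant of each marker list. Of the genes so named, 2 are not reported. Members and lists were chosen with earlier results of these data known. Gene positions came from RefSeq (GRCm38.p6), and figures were drawn with Python 3.11.15 and matplotlib 3.10.9. The serum small RNA counts were not used here.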

Additional observations from a re-analysis of the deposited data

Results flagged for a closer look

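Within each group, 146 sets of library values (members, named genes and summed lists) were searched for a library far from the rest of its group. The search found 21. The cut-offs have a nominal chance rate of about 5% of sets, which was not checked for values such as these. Of the 21, 13 were TESA library 12 at 46 days, out of 31 sets for that group. There it was high for Pabpc1 (19.4 CPM), Eif4g2 (55.3 CPM), Eif1 (46.2 CPM), Ddx5 (71.5 CPM), Ddx17 (44.7 CPM), Btg1 (10.3 CPM), Caprin1 (58.9 CPM) and Xrn1 (12.3 CPM), and low for Eif4g1 (327 CPM). Its summed levels were also high for the chromatoid body and helicases (154 CPM), deadenylation and decapping (34.4 CPM), the repressors (88.9 CPM) and the members (31.6 CPM). The sets share genes and 1 scaling factor per library, so they are not independent. Eif4g2, Eif1 and Btg1 were among the sets because of their unadjusted p between the groups, which this library carries in part, so the share of 13 of 31 is a description.

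The remaining 8 were spread over 6 libraries. At 24 h, Paip2 was low in CTRL library 4 (25.6 CPM against 46.6 to 49.2 CPM) and high in TESA library 1 (47.9 CPM against 29.2 to 32.1 CPM), Caprin1 was high in CTRL library 8 (46.3 CPM) and Btg1 low in TESA library 3 (21.8 CPM). The summed initiation factors were high in TESA library 1 (1402 CPM) and the summed smooth muscle markers in TESA library 5 (85.3 CPM against 27.6 to 32.3 CPM). At 46 days, CTRL library 7 was low for Xrn1 (0 CPM) and for summed deadenylation and decapping (5.90 CPM against 9.41 to 11.9 CPM).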

How the results depend on the processing

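The count of 0 genes called at 24 h held in every alternative. At 46 days it was 0 except with the edgeR exact test (12), and the cause was not tested. For the interaction it was 0 except with DESeq2 (6) and when 1 library was left out (0 to 4, above 0 without TESA libraries 1, 3 or 5 of the 24 h set). No member was called in any alternative, and the smallest adjusted p was 0.759 at 24 h and 0.494 at 46 days.

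Members kept their direction in 58 of 72 values at 24 h and 40 of 42 at 46 days when 1 library was left out, and in 76 of 81 and 30 of 36 under the other alternatives. On library totals without TMM the log2 fold changes at 24 h turned for Pabpc1 (0.11), Ybx1 (0.093) and Ybx2 (0.18), and at 46 days for Pabpc1 (-0.93), Ddx4 (-1.50), Paip2 (-0.99), Btg1 (-0.38) and Eif1 (-0.55), and so did the interaction for Pabpc1 (-1.04) and Paip2 (-0.87). By construction this scaling shifts all genes, at 46 days to a median of -1.03, and Btg1 and Eif1 stayed above that median. limma turned Dazl (-0.58) and Ddx4 (-0.52) at 24 h and Pabpc1 (-0.22) at 46 days. Pabpc1 at 46 days also turned among libraries 1 to 10 (-0.39) and without both TESA libraries 2 and 12 (-0.32).

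Leaving out 1 library gave ranges across 0 at 24 h for Ybx1 (-0.21 to 0.071), Ybx2 (-0.19 to 0.064), Ybx3 (-0.38 to 0.036), Dazl (-0.35 to 0.90), Ddx4 (-0.18 to 0.69) and Ddx25 (-0.039 to 0.49). It did so at 46 days for Pabpc1 (-0.34 to 1.07) and Ddx4 (-0.020 to 0.41), and in the interaction for Pabpc1 (-0.32 to 0.92) and Ddx4 (-0.62 to 0.26). At 24 h Pabpc1 ran from -0.11 to -0.0051 and Pabpc2 from -1.14 to -0.28. Paip2 ran from -0.44 to -0.19 at 24 h and from 0.20 to 0.30 at 46 days. Without a count filter Ybx2 at 46 days had a log2 fold change of 0.70 (SE 0.44, edgeR adjusted p = 0.937). With library totals the mean levels at 46 days were 4.63 CPM for Ybx2, 6.01 CPM for Ddx4 and 11.7 CPM for Paip2.

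No paired analysis was possible because the labels give no litter, cage or other link between TESA and CTRL sperm libraries. At 46 days single libraries held as few as 1 (Pabpc1, Ybx2), 2 (Ddx4, beside 1 library at 0) and 6 (Paip2) counts, which limits the precision there.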
